A study of Bos taurus with 24 samples.

Results

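Testes contain mitochondria in every cell type, and bovine mitochondria carry their own small circular genome. In RefSeq's gene table for the ARS-UCD2.0 assembly that genome holds 37 genes, of which 13 encode proteins, 2 encode ribosomal RNAs and 22 encode transfer RNAs. The proteins are all subunits of the oxidative phosphorylation machinery, which moves electrons along a chain of complexes and uses the resulting proton gradient to make ATP. Both strands are transcribed as long precursors that are cut into single transcripts. Most of the messenger RNAs carry poly(A) tails, so these are seen in libraries selected for poly(A) RNA. The remaining subunits of these complexes are encoded in the nucleus and imported.

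The 6 features described here are abundant mitochondrially encoded genes, taken from a fixed list of identifiers among 24525 features in all. ENSBTAG00000043561 is COX1, the catalytic subunit of cytochrome c oxidase, the complex that passes electrons to oxygen. A second feature joins ENSBTAG00000043560 (COX3, another core subunit of cytochrome c oxidase), ENSBTAG00000043584 (ATP6, a subunit of the proton channel of ATP synthase) and ENSBTAG00000043564, and is called the COX3/ATP6 feature. ENSBTAG00000043550 is CYB, cytochrome b, the mitochondrially encoded subunit of the complex that reduces cytochrome c. ENSBTAG00000043556 and ENSBTAG00000043558 each stand alone, and ENSBTAG00000043559 and ENSBTAG00000043577 are joined in one feature, called the 2-gene feature. Names for COX1, COX3, ATP6 and CYB come from the study's text. The other identifiers were not paired with symbols here and are given as identifiers only. Coordinates of these features were not used here, since the counts were made on UMD3.1 and the gene table at hand describes another assembly. Nuclear genomes also hold copies of mitochondrial sequence, and how reads matching both were assigned is not given in the sources used here.

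The counts come from the testes of 24 Holstein bulls of one breed that differed in diet, with 8 bulls on each diet and 1 stranded messenger RNA library per bull. High-diet (HD) bulls received 20.0% crude protein and 67.9% total digestible nutrients, medium-diet (MD) bulls 17.0% and 66.0%, and low-diet (LD) bulls 12.2% and 62.9%. The diet treatments began at 2 wk of age and ended at 31 or 32 wk, as the study's methods give both. Calves were first fed milk, most in HD and least in LD, and the percentages describe the barley silage-based diets that followed. After the treatments every bull ate the MD diet until its testes were taken at 72 wk. The comparison asks whether early diet left a difference in testis RNA long after the diets had ended. Whole testis tissue was sequenced, so fewer cells of a type and less RNA per cell cannot be told apart, and the tissue label was not checked against cell type markers because symbols were not paired with identifiers.

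Libraries held 9163675 to 21902110 counts on features. Reads outside exons made up 12.3% ± 2.17 of counts and unassigned reads in HD, 14.5% ± 3.28 in MD and 13.3% ± 1.83 in LD (SD, n = 8 each). Alignments of low quality made up 11.5% ± 5.18, 7.80% ± 1.33 and 8.24% ± 1.82 in the same order. As a check for a library given more than once, chi-square per degree of freedom over features was at least 10.7 in each of 84 pairs of one diet, with reads taken as independent, so each library was kept as 1 sample. HD bull 14 had the fewest counts of the 24 libraries and stood apart from the other HD bulls in the ratios between members, so the ratios, bin shares and relations that it moved most are also given without it.

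Together the 6 features took 5.45% ± 2.93 of all counts on features (SD, n = 24), between 1.69% in MD bull 6 and 12.5% in HD bull 8. The HD bulls ranged from 3.45% to 12.5% with a median of 6.01%. The MD bulls ranged from 1.69% to 7.75% with a median of 3.02%, and the LD bulls from 2.21% to 10.97% with a median of 4.59%. All 3 ranges overlapped. The widest 95% Wilson interval of such a share was 0.0345 percentage points, far below the spread between bulls. Such intervals cover counting error only, since amplified reads without molecular identifiers are not independent molecules.

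By raw count, without correction for gene length, COX1 ranked first and the COX3/ATP6 feature second in all 24 libraries. Below these the order varied between bulls. CYB ranked between 3 and 16 (median 5), ENSBTAG00000043556 between 3 and 28 (median 5), ENSBTAG00000043558 between 4 and 24 (median 6) and the 2-gene feature between 6 and 33 (median 12). In 10 bulls all 6 features were among the 10 highest, and these were 4 HD, 3 MD and 3 LD bulls. A joined feature sums several genes, so its rank is not that of one gene.

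**Figure D1:**
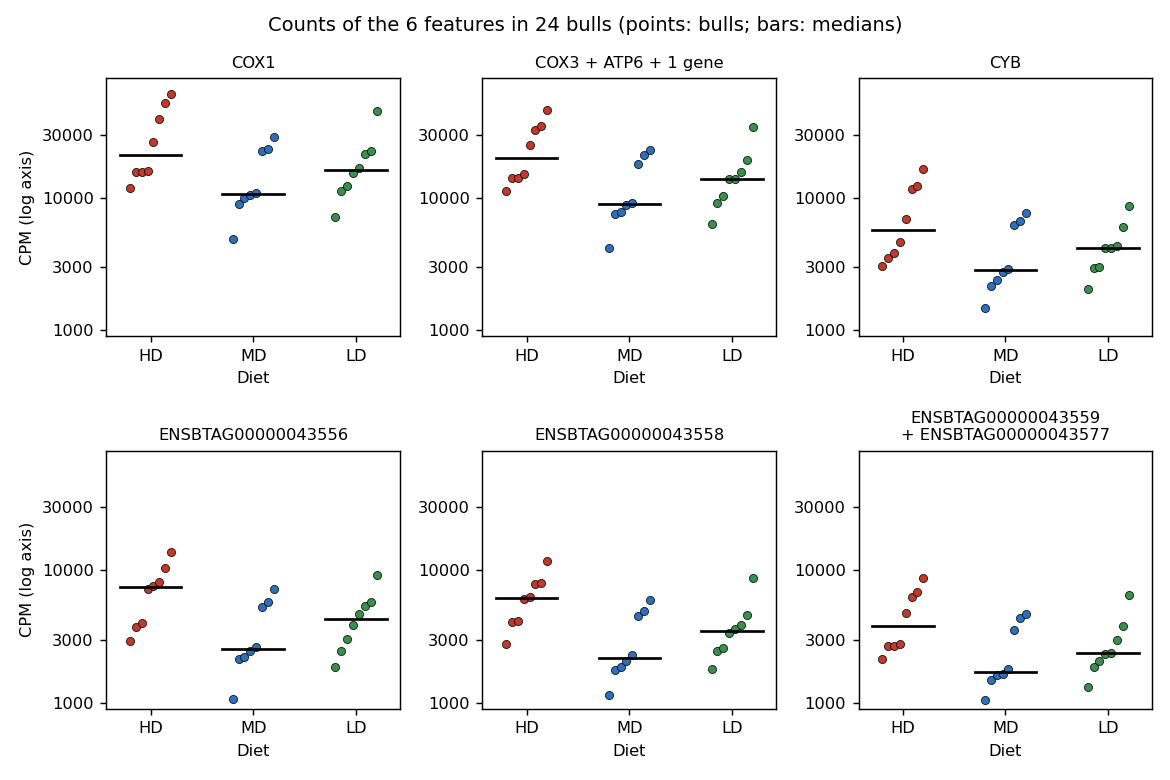
Level of each of the 6 features in CPM (log axis) for the 24 bulls by diet. Points are bulls and bars are medians. In each panel the HD median is highest and the MD median lowest, and the ranges overlap.

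Levels are given in CPM, the count of a feature scaled to a library of 1e+06 counts with edgeR's TMM factors. In HD bulls COX1 ranged from 11875 to 60606 CPM with a median of 21114. The MD bulls ranged from 4893 to 28808 CPM with a median of 10705, and the LD bulls from 7120 to 45243 CPM with a median of 16161. The means were 29712 ± 18770, 14998 ± 8589 and 19048 ± 11767 CPM (SD, n = 8 each). Every HD bull was above the MD median, 5 MD bulls were below every HD bull, and 3 HD bulls were above every MD bull. Within HD 4 bulls lay between 11875 and 15929 CPM, and the highest had 52032 CPM in bull 7 and 60606 CPM in bull 8.

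The COX3/ATP6 feature, which pools transcripts of 2 complexes, followed the same order. HD bulls lay between 11223 and 46002 CPM (median 20114), MD bulls between 4180 and 22881 CPM (median 9038) and LD bulls between 6318 and 34131 CPM (median 13914). Of the HD bulls 4 were above every MD bull, and 5 MD bulls were below every HD bull. The extremes were again HD bull 8 and MD bull 6, which were also the extremes for COX1.

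CYB lay between 3081 and 16675 CPM in HD (median 5772), between 1473 and 7629 CPM in MD (median 2843) and between 2059 and 8676 CPM in LD (median 4171). The lowest HD value, 3081 CPM, was that of bull 14. Of the HD bulls 3 exceeded every MD bull and the same number exceeded every LD bull.

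ENSBTAG00000043556 lay between 2945 and 13752 CPM in HD (median 7457), between 1062 and 7183 CPM in MD (median 2557) and between 1847 and 9284 CPM in LD (median 4281). Here bull 14 had 10359 CPM, the second highest HD value, although it was lowest in HD for CYB. ENSBTAG00000043558 lay between 2798 and 11754 CPM in HD (median 6213), between 1147 and 6011 CPM in MD (median 2178) and between 1793 and 8787 CPM in LD (median 3467). For each of these identifiers 5 HD bulls were above every MD bull.

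The 2-gene feature was the lowest of the members by mean count in every diet. It lay between 2138 and 8824 CPM in HD (median 3772), between 1053 and 4695 CPM in MD (median 1711) and between 1308 and 6506 CPM in LD (median 2364). In all 6 members HD had the highest and MD the lowest mean and median, and LD lay between. The ratio of the highest to the lowest bull was 8.38 for the 2-gene feature and 12.95 for ENSBTAG00000043556, with the other members between.

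HD and MD were compared by the quasi-likelihood test of edgeR, fitted to 15005 features in all 24 libraries, with Benjamini-Hochberg adjustment over those features. At an adjusted p below 0.1 the test called 3 of 6 members, all higher in HD, where it called 14.1% of all features, 8.68% as higher and 5.42% as lower in HD. Scaled by library size only, the test called 3547 features, of which 542 were higher in HD, beside 1302 of 2116 with TMM. ENSBTAG00000043558 was higher by a log2 fold change of 1.06 (SE 0.34, adjusted p = 0.0715, edgeR). ENSBTAG00000043556 was higher by 1.01 (SE 0.37, adjusted p = 0.0886, edgeR). The COX3/ATP6 feature was higher by 0.96 (SE 0.36, adjusted p = 0.0948, edgeR).

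The other 3 members had similar differences with adjusted p just above the threshold. COX1 differed by 0.99 (SE 0.39, adjusted p = 0.109, edgeR), CYB by 0.96 (SE 0.38, adjusted p = 0.109, edgeR) and the 2-gene feature by 0.87 (SE 0.35, adjusted p = 0.115, edgeR). The median log2 fold change of the 6 members was 0.97, beside 0.0031 over all 15005 features. All 6 members had an unadjusted p below 0.05 in edgeR, as did 29.0% of all features. Without HD bull 8 this count was 3, where 3532 features had such a p. Without any other single bull it was 6, where 3056 to 5141 features had such a p, beside 4345 with all bulls. Members with and without a call differed by less than the SE of either, so no difference between them is shown.

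Calls of single members depended on the test, the scaling, the filter and single bulls. With library size only ENSBTAG00000043558 was the 1 member called, and with no filter on low counts 0 members and 1 of 21333 features were called. DESeq2 called 5 of 6 members, where it called 2922 of 15005 features with its beta prior and 2937 by default. In edgeR with only the HD and MD libraries 0 members and 1 of 14649 features were called, and all 6 members and 3475 features had an unadjusted p below 0.05. Leaving out 1 bull at a time gave between 0 and 6 called members. None was called without any one of HD bulls 7, 8 or 13 or MD bulls 4, 6, 16, 17 or 19, and each of these fits called 1 feature in all. All 6 were called without any one of HD bulls 9, 11, 12 or 14 or MD bulls 5 or 18, where 2911 to 4019 features were called. The median difference stayed between 0.75 and 1.17 on the log2 scale over those fits.

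Between HD and LD the 6 members were higher in HD by log2 fold changes of 0.64 to 0.82, with a median of 0.67. The edgeR test called 0 of 6 members and 0.00% of all features. At an unadjusted p below 0.05 there were 2 members, CYB and ENSBTAG00000043558, where 17.7% of all features had such a p and 11.1% had it with HD higher. With 1 bull left out this count ran from 0 to 6 members. It was 0 without any one of HD bulls 7, 8 or 13 or LD bulls 1, 3, 20, 22, 23 or 24, where 1696 to 3108 features had such a p. It was between 3 and 5 without any one of HD bulls 9, 11, 12 or 14 (3030 to 3660 features) and 6 without LD bull 2 (2830 features), beside 2661 features with all bulls. CYB had a difference of 0.82 (SE 0.38, adjusted p = 0.259, edgeR) and ENSBTAG00000043558 one of 0.72 (SE 0.34, adjusted p = 0.268, edgeR). DESeq2 called 578 features with its beta prior and 539 by default in this comparison, and none of the members. At an unadjusted p below 0.05 it had 5 members and 2864 features with the beta prior and 4 members and 2874 features by default, and edgeR scaled by library size only had 0 members and 3094 features. HD and LD bulls overlapped, and only 1 to 3 HD bulls exceeded every LD bull in a given member. In every member the highest LD value was that of LD bull 2, and 4 to 7 HD bulls were above the LD median.

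Between MD and LD the differences were −0.34 for COX1, ENSBTAG00000043556 and ENSBTAG00000043558, −0.30 for the COX3/ATP6 feature, −0.20 for the 2-gene feature and −0.13 for CYB, all on the log2 scale with MD lower. The median was −0.32, and it was −0.0285 without LD bull 2 and −0.52 without MD bull 5. CYB and the 2-gene feature were higher in MD, by 0.079 and 0.082, without LD bull 2. No member was called and none had an unadjusted p below 0.05 in edgeR, where 0.00% of all features were called, 1.07% had such a p and 0.546% had it with MD higher. DESeq2 called no member or other feature in this comparison. In every member 3 MD bulls were above the LD median. HD, MD and LD enter 3 comparisons that share libraries, so these values are not independent of each other.

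**Figure D2:**
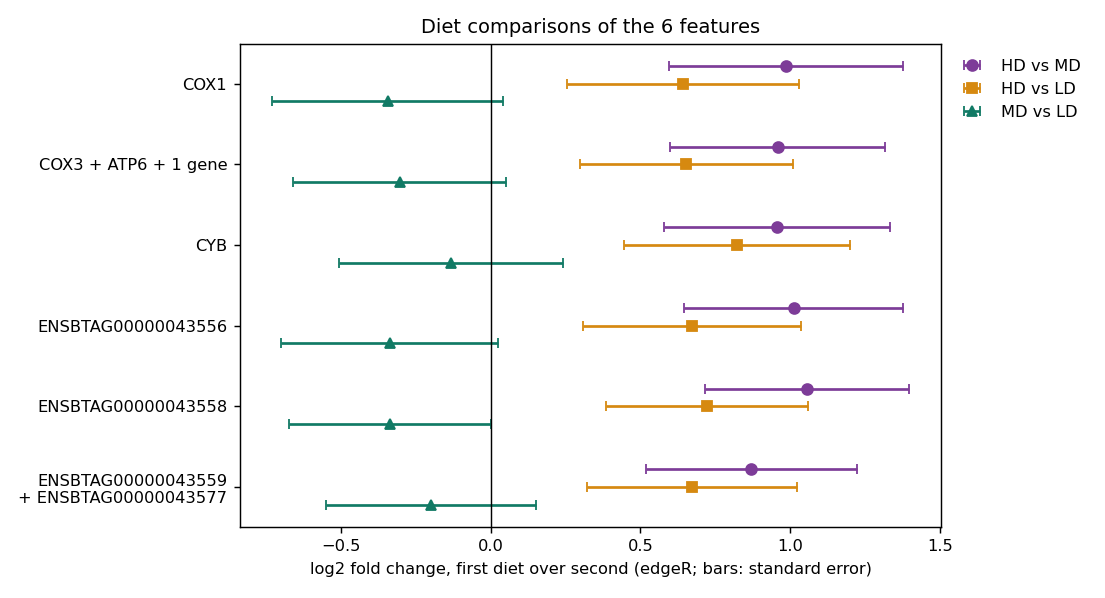
Log2 fold change of each feature in the 3 diet comparisons from edgeR, with bars for 1 standard error. HD vs MD values lie between 0.87 and 1.06, HD vs LD values between 0.64 and 0.82, and MD vs LD values between −0.34 and −0.13.

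Bulls on one diet differed from each other in these features more than in most others. The SD of log2 CPM within a diet was 0.74 for ENSBTAG00000043558 to 0.85 for COX1, where the median over 15005 features was 0.41. These values stand at percentiles 93.0 to 96.6 of all features, and at percentiles 96.6 to 98.4 of the 500 most abundant, whose median SD was 0.35. The biological coefficient of variation estimated by edgeR was 0.46 to 0.53 for the members and had a median of 0.27. A difference of about 1 on the log2 scale between diets was thus near the SD between bulls of one diet.

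The members rose and fell together from bull to bull. Over the 24 bulls Pearson's r between the log2 CPM of any pair of members ranged from 0.87 (CYB with ENSBTAG00000043556) to 0.99 (the COX3/ATP6 feature with the 2-gene feature), and Spearman's rho from 0.88 to 0.98. Each of the 15 pairs had a two-sided permutation p of 1e-05, the smallest that 100000 resamples can give, and the same adjusted p. With the 2 most distant bulls left out r was between 0.81 and 0.99. The lowest r was 0.97 within MD and 0.90 within LD. Within HD the lowest was 0.63 for CYB with ENSBTAG00000043556 (exact permutation p = 0.102). Without HD bull 14 that pair had an r of 0.96 over the remaining bulls, and all pairs lay between 0.96 and 0.99. The points share a library and its normalization.

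Many features outside the list followed the same pattern. Of 14999 other features, 227 had an r of at least 0.9 with the mean log2 CPM of the 6 members and 133 had an r of −0.9 or lower, while the median was −0.0473. ENSBTAG00000043546 was most like the members, with an r of 0.98 over 24 bulls, followed by ENSBTAG00000009757 with 0.97. At the other end were ENSBTAG00000000678 and ENSBTAG00000013266, each with an r of −0.97. These 4 identifiers are given without symbols for the reason stated above. ENSBTAG00000043546 was higher in HD than in MD by 1.02 on the log2 scale (adjusted p = 0.0840, edgeR).

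The shares of reads outside exons and of ambiguous reads both moved closely with the members. The share of reads outside exons fell as member levels rose, with Spearman's rho of −0.94 for COX1, −0.92 for CYB, −0.90 for the COX3/ATP6 feature, −0.88 for the 2-gene feature, −0.82 for ENSBTAG00000043558 and −0.79 for ENSBTAG00000043556. Pearson's r was −0.91 for COX1 and between −0.90 and −0.82 for the others. All had a two-sided permutation p of at most 2e-05 and an adjusted p of at most 4e-05 over 24 relations. Without MD bulls 6 and 19, the most distant in that share, r was −0.92 to −0.75.

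The relation was also computed within each diet. In MD r was −0.93 to −0.85 and in LD −0.96 to −0.84, with exact permutation p of at most 0.0072. In HD it was −0.94 for CYB, −0.92 for the 2-gene feature, −0.90 for COX1 and the COX3/ATP6 feature, and −0.73 for ENSBTAG00000043558. For ENSBTAG00000043556 in HD it was −0.48 with an exact permutation p of 0.230. HD bull 14 combined 15.6% of reads outside exons, the highest HD share, with the second highest HD level of ENSBTAG00000043556. Over the other 7 HD bulls r was −0.98 to −0.93 in all 6 members.

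The share of ambiguous reads, 0.165% to 0.347% of a library, rose with the members at a rho of 0.87 to 0.94 and an r of 0.86 to 0.93, each with a permutation p of 1e-05. Without HD bulls 7 and 13, the most distant, r was 0.81 to 0.95. Within diets r was 0.70 to 0.92 in HD, 0.98 to 0.99 in MD and 0.89 to 0.97 in LD. No fit had this share as a covariate. The share of alignments of low quality had a rho of 0.61 to 0.70 (permutation p of at most 0.0019, adjusted p of at most 0.0026) but a lower r of 0.37 to 0.41 (adjusted permutation p of 0.0782 to 0.104). Within diets its r was 0.83 to 0.90 in MD, 0.35 to 0.64 in LD and −0.0637 to 0.0770 in HD. Total counts had a rho of 0.30 to 0.48 and an r of 0.0149 to 0.18, none of the latter past the threshold. The rho passed it in every member but ENSBTAG00000043556 (adjusted permutation p of 0.0239 to 0.0967, and 0.160 for that member). Without HD bull 14 the rho was 0.44 to 0.51, past the threshold in every member (adjusted permutation p of 0.0190 to 0.0378). Within diets r with total counts was −0.35 to 0.061 in HD, 0.68 to 0.74 in MD and −0.21 to −0.088 in LD. Reads outside exons and ambiguous reads do not enter the library sizes behind the CPM of the members, but all come from the same libraries. Member counts are part of the total over which these shares were taken, so a rise in member counts alone lowers the shares. How much this adds to the relations was not tested. What lies behind these relations was not tested.

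**Figure D3:**
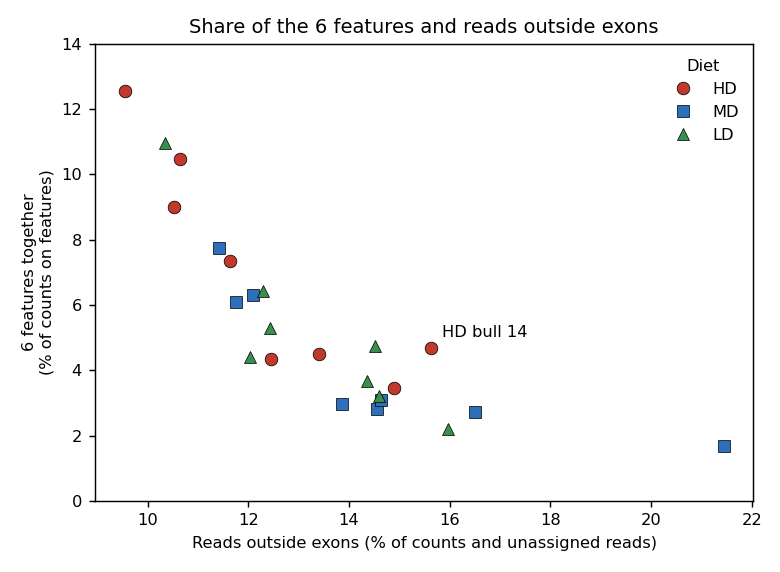
Share of counts taken by the 6 features together against the share of reads outside exons, one point per bull with symbols for diet. The points fall from 12.5% in HD bull 8 to 1.69% in MD bull 6 as reads outside exons rise, and HD bull 14, marked, lies at 4.68%.

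The HD vs MD and HD vs LD differences of the members were smaller when the share of reads outside exons entered the edgeR fit as a covariate. Member counts are part of the total behind that share, so the covariate is not independent of the members. The median log2 fold change of the members was then 0.35 for HD vs MD, 0.41 for HD vs LD and 0.0037 for MD vs LD. ENSBTAG00000043556 had the largest remaining HD vs MD difference, 0.69 (SE 0.25, adjusted p = 0.199, edgeR), followed by ENSBTAG00000043558 with 0.64 (SE 0.20, adjusted p = 0.190, edgeR) and the COX3/ATP6 feature with 0.39 (SE 0.18, adjusted p = 0.281, edgeR). COX1, CYB and the 2-gene feature had differences of 0.31, 0.28 and 0.31. No member was called in any comparison, and over all 15005 features 1 was called in HD vs MD and 0 in HD vs LD. At an unadjusted p below 0.05 there were 3 of 6 members and 2376 features in HD vs MD, and 4 of 6 members and 2670 features in HD vs LD. By diet alone these were 6 members and 4345 features, and 2 members and 2661 features. In MD vs LD the difference in CYB went from −0.13 to 0.15.

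Ratios between members do not depend on how libraries are scaled. Counts of COX1 were 1.04 to 1.58 times those of the COX3/ATP6 feature, with a median of 1.18 over 24 bulls. Counts of the COX3/ATP6 feature were 2.39 to 4.42 times those of ENSBTAG00000043558, with a median of 4.02, and 3.97 to 6.58 times those of the 2-gene feature, with a median of 5.16. CYB had 0.297 to 1.61 times the counts of ENSBTAG00000043556, with a median of 1.12. These are ratios of counts and not of molecules, as genes differ in length. A read over several bins of a joined feature may also count more than once.

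The steadiest ratio was that of the COX3/ATP6 feature to the 2-gene feature, with an SD of 0.13 within diets on the log2 scale. The most variable was CYB to ENSBTAG00000043556, with an SD of 0.47. Both places in this order depended on HD bull 14. Over the 23 bulls without it, the SD across diets was lowest for the COX3/ATP6 feature to ENSBTAG00000043558 (0.10). It was 0.13 for the COX3/ATP6 feature to the 2-gene feature. The highest was 0.25 for ENSBTAG00000043556 to the 2-gene feature, beside 0.24 for CYB to ENSBTAG00000043556. Counting error alone gives an SD of 0.0047 to 0.0102 for the 15 ratios. All ratios varied less than the levels of the members, whose SD within a diet was at least 0.74.

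HD bull 14 set most of the widest ranges. Its CYB count was 0.297 times that of ENSBTAG00000043556, where the other 23 bulls had 0.726 to 1.61. Its COX3/ATP6 count was 2.39 times that of ENSBTAG00000043558, where the others had 3.42 to 4.42. Its COX1 count was 1.52 times that of ENSBTAG00000043556, where the others had 3.62 to 6.38. The ratio of ENSBTAG00000043556 to the 2-gene feature was 3.83 in this bull and at most 2.41 in the others. In this library ENSBTAG00000043556 and ENSBTAG00000043558 were thus high relative to the other members, and CYB was low.

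**Figure D4:**
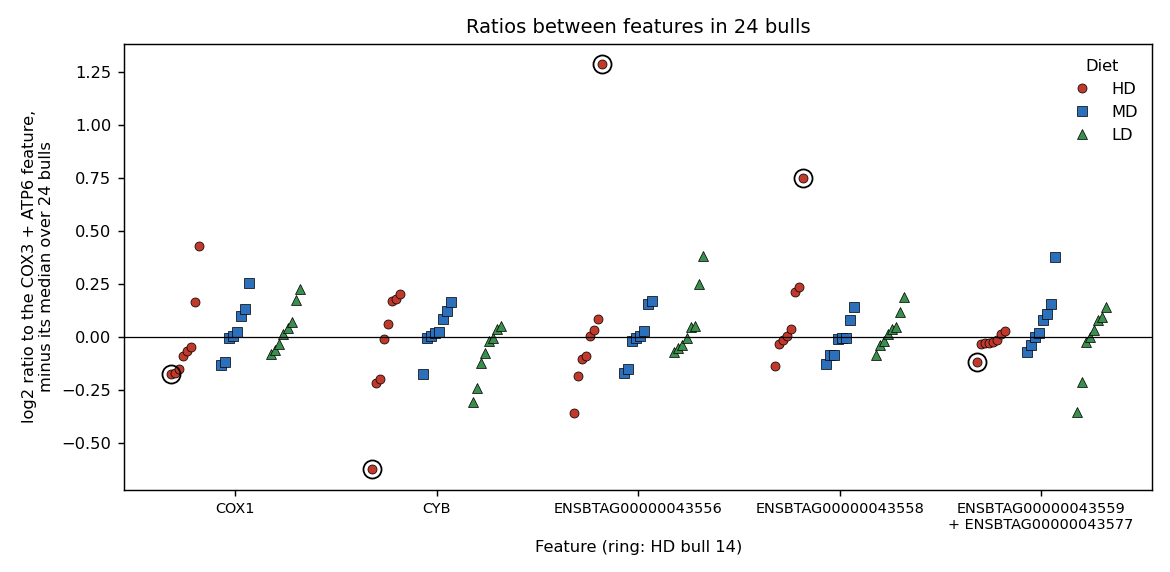
Log2 ratio of each feature to the COX3/ATP6 feature, minus its median over 24 bulls, by diet, with HD bull 14 ringed. Its points for ENSBTAG00000043556 and ENSBTAG00000043558 are the highest, and that for CYB is the lowest.

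Ratios were compared between diets for 15 pairs in 3 comparisons by exact permutation tests, two-sided, over every regrouping of 8 against 8 bulls. None of the 45 tests had an adjusted p below 0.1, and 4 had an unadjusted p below 0.05. The log2 ratio of CYB (ENSBTAG00000043550) to ENSBTAG00000043558 was higher in MD than in LD by 0.16 (exact permutation p = 0.00606, adjusted p = 0.273). The log2 ratio of ENSBTAG00000043558 to the 2-gene feature was higher in HD than in MD by 0.25 (exact permutation p = 0.0129, adjusted p = 0.290) and lower in MD than in LD by 0.15 (exact permutation p = 0.0385, adjusted p = 0.469). The log2 ratio of the COX3/ATP6 feature to the 2-gene feature was higher in HD than in MD by 0.10 (exact permutation p = 0.0416, adjusted p = 0.469). Single bulls decided some of these values. In HD bull 14 the log2 ratio of ENSBTAG00000043558 to the 2-gene feature was 1.23, where the next HD bull had 0.62, and without this bull the HD minus MD difference fell to 0.15 (exact permutation p = 0.0247, adjusted p = 0.409). Without HD bull 13 the ratio of ENSBTAG00000043558 to the 2-gene feature had an adjusted p of 0.00699 for HD vs MD, and without LD bull 21 that of CYB to ENSBTAG00000043558 had an adjusted p of 0.0769 for MD vs LD, both by exact permutation. Against the share of reads outside exons, none of the 15 ratios had an adjusted permutation p below 0.1, the lowest being 0.112. At an unadjusted permutation p below 0.05 there were 3 ratios by r and 3 by rho. COX1 (ENSBTAG00000043561) to the 2-gene feature had an r of −0.53 (permutation p = 0.00965) and a rho of −0.47. COX1 to ENSBTAG00000043558 had an r of −0.38 and a rho of −0.51 (permutation p = 0.0120), with an r of −0.81 within HD, −0.33 within MD and −0.77 within LD.

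The joined features are divided into bins, which are stretches between the ends of the genes they hold. The COX3/ATP6 feature has 5 bins. A chain of 3 overlapping genes gives 5 stretches, of which bins 1, 3 and 5 belong to single genes and bins 2 and 4 to overlaps. In RefSeq, 4 pairs of mitochondrial protein-coding genes overlap, including ATP8 with ATP6 and ATP6 with COX3. In that gene order bin 3 would be ATP6 alone, bin 4 the overlap of ATP6 and COX3, and bin 5 COX3 alone. The counts carry no coordinates, so this assignment rests on the order of genes in the annotation and was not checked on positions.

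Most counts of the feature fell in bins 5 and 3. Bin 5 took 44.7% ± 5.89 (27.9% to 59.2%) of its counts and bin 3 took 38.4% ± 5.15 (28.7% to 58.4%), over 24 bulls. Bin 1 took 9.17% ± 1.24, bin 2 took 6.79% ± 0.76 and bin 4 took 0.995% ± 0.201 (SD, n = 24). Bin 5 held more counts than bin 3 in 23 of 24 bulls. HD bull 14 was the exception.

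The balance of bins 5 and 3 varied mainly among HD bulls. The ratio of bin 5 to bin 3 was 1.04 to 1.41 in MD and 1.03 to 1.36 in LD, but 0.478 to 2.04 in HD. In HD bull 8 bin 5 took 58.5% (95% Wilson interval 58.4% to 58.6%) and bin 3 took 28.7%, and in HD bull 13 the shares were 59.2% (59.1% to 59.4%) and 29.7%. In HD bull 14 bin 5 took 27.9% (27.7% to 28.2%) and bin 3 took 58.4% (58.2% to 58.7%). The SD of the share of bin 5 was 9.77 percentage points in HD, 2.58 in MD and 2.56 in LD, and 6.81 in HD without bull 14. That difference in spread was not tested.

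Bin 4 was also lowest in HD bull 14, with 288 counts or 0.237% (0.211% to 0.266%) of the feature, where the next HD bull had 0.856%. The interval of bin 4 in this bull did not reach the next value. Over all bins and bulls the widest Wilson interval was 1.08 percentage points, below the gaps of bins 3 and 5 in this bull. The same library had the unusual ratios between features described above, and it was the library with the fewest counts, 9163675.

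**Figure D5:**
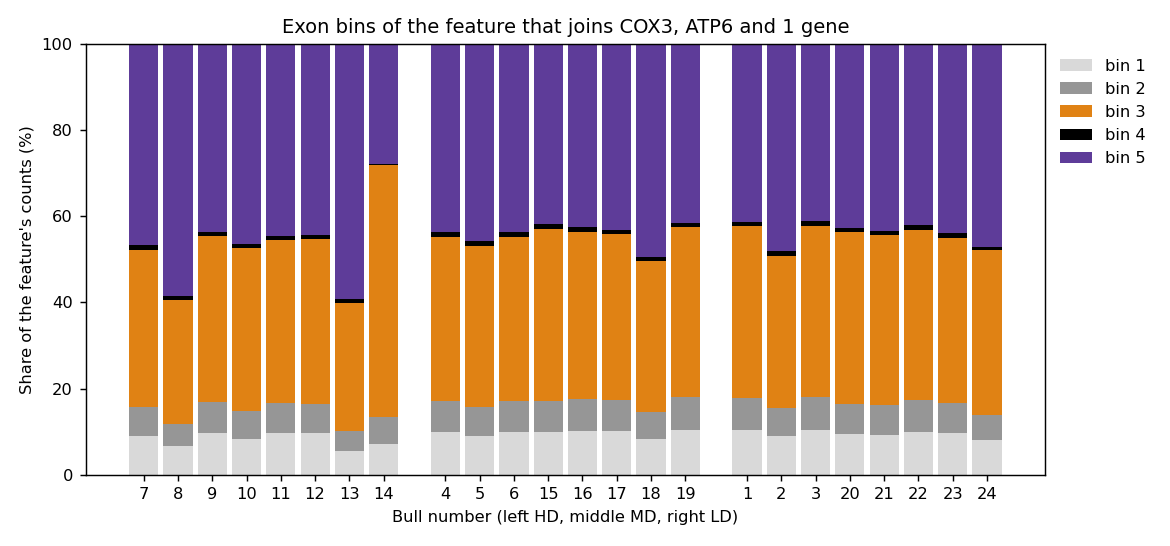
Share of the counts of the COX3/ATP6 feature in each of its 5 bins, one stacked bar per bull, grouped as HD, MD and LD. Bins 3 and 5 take most counts, and bin 3 exceeds bin 5 only in HD bull 14 (58.4% against 27.9%).

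Diet means of bins 3 and 5 were near each other over all bulls, and farther apart without HD bull 14. HD bulls had 46.4% ± 9.77 of counts in bin 5, beside 43.9% ± 2.58 for MD and 43.7% ± 2.56 for LD (SD, n = 8 each). For bin 3 the values were 38.2% ± 9.07, 38.2% ± 1.49 and 38.8% ± 1.62. Without bull 14 the HD means were 49.1% ± 6.81 for bin 5 and 35.3% ± 4.24 for bin 3 (SD, n = 7). The HD minus MD difference then went from 2.51 to 5.15 percentage points in bin 5 (exact permutation p = 0.0598, adjusted p = 0.179) and from 0.0478 to −2.84 in bin 3 (exact permutation p = 0.102, adjusted p = 0.233). Of 24 exact permutation tests on the bins of both joined features, 0 had an adjusted p below 0.1. The smaller bins were lower in HD than in MD at unadjusted p only. Bin 1 differed by −1.46 percentage points (exact permutation p = 0.0270), bin 2 by −0.88 (exact permutation p = 0.0281) and bin 4 by −0.21 (exact permutation p = 0.0160), each with an adjusted p of 0.225. Without HD bull 14 the difference in bin 4 was −0.12 (exact permutation p = 0.0329, adjusted p = 0.174). Taken relative to the most covered bin, bin 4 was lower in HD than in MD by 0.47 on the log2 scale (exact permutation p = 0.00451, adjusted p = 0.0811). Without HD bull 14 it was lower by 0.31 (exact permutation p = 0.00824, adjusted p = 0.143), which no longer passed.

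The 2-gene feature has 3 bins, which is the pattern of a pair of overlapping genes with the overlap in the middle. Bin 3 took 86.2% ± 1.25 of its counts, bin 1 took 11.4% ± 1.08 and bin 2 took 2.44% ± 0.204 (SD, n = 24). The share of bin 3 reached 90.1% in HD bull 13 (95% Wilson interval 89.9% to 90.3%), the highest of all bulls. In HD bull 14 it was 85.3% (84.8% to 85.7%), within the range of the others. Bin 2 was lower in HD than in MD by −0.21 percentage points (exact permutation p = 0.0396, adjusted p = 0.238).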

How the data were processed

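Testis RNA of 24 bulls was sequenced by the authors as 1 stranded library per bull with 75-base single reads. Per the study's methods and the submitters' processing notes, reads were mapped to UMD3.1 with TopHat2 2.0.10 and counted, with featureCounts named. The deposited values are raw read counts per exon bin, which the authors had not normalized. The program that made the bins and its strand setting are not given in the sources used here.

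The 6 members were found by identifier and their bin counts summed. Whether a read over several bins was counted in each of them is not given in the sources used here. Sums, shares and intervals over bins may therefore hold the same read more than once. Rows that name no gene (reads outside exons, ambiguous, low quality; shares in the report) stayed out of library sizes. Diets were compared with edgeR 4.0.16 (R 4.3.3, TMM, filterByExpr, glmQLFit and glmQLFTest, diet as only factor, all 24 libraries, adjusted p below 0.1), as tested on simulated counts. Standard errors were the absolute log2 fold change over the root of the F statistic, and DESeq2 1.42.0 served as an alternative. Ratios and bin shares were compared by two-sided exact permutation over all regroupings of 8 against 8 bulls, and correlations with 100000 resamples (Python 3.11.15, scipy 1.17.1). Every bull is an independent animal, and the spread between bulls, not depth, limits precision.

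Features named besides the 6 members are those most and least correlated with their mean, up to 2 each way. Members and lists were chosen with earlier results of these data known. Lists of nuclear oxidative phosphorylation genes, of cell type markers and of other mitochondrial genes were not analysed, because 0 genes in the gene table carry an Ensembl identifier. Alternatives were other scalings, low-count filters, DESeq2, only the diets compared, 1 bin per feature, a covariate and each bull left out.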

Additional observations from a re-analysis of the deposited data

Results flagged for a closer look

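In 87 sets of 8 bulls, each a level, ratio or bin share of a member in one diet, the highest or lowest bull was compared with its nearest neighbour by Dixon's ratio at its 95% critical value. It was passed in 15 sets. About 4.35 would pass by chance if the values of each set were normally distributed, which was not checked. Levels were taken in CPM and not on a log scale, and the sets are not independent of each other.

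HD bull 14 was the bull in 11 of them. In the COX3/ATP6 feature its bin 3 took 58.4% of counts, with the next bull at 38.5%, and its bin 4 took 0.237%, with the next at 0.856%. Its log2 ratio of COX1 to ENSBTAG00000043556 was 0.60, with the next bull at 1.86. Log2 ratios of the COX3/ATP6 feature were 0.54 to ENSBTAG00000043556 (next 1.74), 1.26 to ENSBTAG00000043558 (next 1.77) and 2.48 to the 2-gene feature (next 2.40). Log2 ratios of CYB were −1.75 to ENSBTAG00000043556 (next −0.07) and −1.04 to ENSBTAG00000043558 (next −0.09). ENSBTAG00000043556 had a log2 ratio of 0.71 to ENSBTAG00000043558 (next 0.25) and 1.94 to the 2-gene feature (next 0.64), and ENSBTAG00000043558 had one of 1.23 to the 2-gene feature (next 0.62).

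LD bull 2 was far from the other LD bulls in 3 sets. Its COX1 level was 45243 CPM, with the next LD bull at 22458, its ENSBTAG00000043558 level was 8787 CPM, with the next at 4572, and its share of bin 3 in the COX3/ATP6 feature was 35.2%, with the next at 38.1%. In MD bull 16 the log2 ratio of COX1 to CYB was 2.33, with the next MD bull at 1.92.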

How the results depend on the processing

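The main HD vs MD fit called 2116 features and 3 members. The counts were 3547 (542 higher in HD, beside 1302 with TMM) and 1 with library size only, 1 and 0 with no filter, 1 and 0 with only both diets' libraries, 1298 and 1 with the most covered bin per feature, 1 and 0 with the covariate, and 2922 (beta prior) or 2937 (default) and 5 with DESeq2. Leaving out 1 bull gave 1 to 4019 features (3596 without HD bull 14, 3600 without MD bull 18) and 0 to 6 members. For HD vs LD, 0 features became 578 or 539 with DESeq2 and 0 to 716 with 1 bull left out (716 without HD bull 12), with 0 members throughout. Member medians with 1 bull left out were 0.75 to 1.17 (HD vs MD), 0.47 to 0.96 (HD vs LD) and −0.52 to −0.0285 (MD vs LD). Library size alone moved the median of all features to −0.21 (HD vs MD) and −0.17 (HD vs LD).

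MD vs LD changed sign with the covariate for COX1 (0.014), CYB (0.15) and the 2-gene feature (0.079), with a member median of 0.0037, and without LD bull 2 for CYB (−0.33 to 0.079 over bulls) and the 2-gene feature (−0.39 to 0.082). Covariate medians were 0.35 (HD vs MD) and 0.41 (HD vs LD). Ratios called with 1 bull left out numbered 0 to 1 in HD vs MD and in MD vs LD. One bin, bin 4, was called relative to the most covered bin, and 0 without HD bull 14. Fits without HD bull 14 for relations, ratio spreads and that bin were chosen after seeing the data. Where no value above shows it, the cause was not tested. Comparisons with nuclear oxidative phosphorylation genes were not run. No paired analysis was possible because each bull received 1 diet and replicate numbers only name bulls.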
